A study of Mus musculus with 9 samples.

Results

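The genes described here encode the T cell receptor complex, its coreceptors and the kinases next to it. They are Cd3d, Cd3g, Cd3e, Cd247, Cd8a, Cd8b1, Cd4, Lck, Zap70 and Cd2. Every probe whose gene name in the scanner files was one of these symbols or an older synonym was taken. This gave 18 probes for the 10 genes, of 41174 probes on the array. Of these, 13 probes, at least 1 for each gene, passed the filter on dim signal (well above background in the sample channel on at least 3 of the 9 arrays) and were tested, of 28334 tested probes for 19850 genes or transcripts. The other 5 probes were for Cd3e (1), Cd247 (3) and Cd4 (1), and their values are given as descriptions.

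The study compared 2 populations of primary prostate cells sorted by flow cytometry from BL6 mice. The marker-positive cells, which the labels call stem cells, were lineage-negative and carried CD44, CD133, Sca-1 and CD117, and were measured on 3 arrays. The marker-negative cells, called non-stem cells, were also lineage-negative but carried none of those 4 surface proteins, and were measured on 6 arrays. The sources used here give neither the lineage antibodies nor the age of the mice. They also do not say if separate animals or cultures lie behind the arrays of a group, and every p-value here refers to array-to-array spread, part of which may be technical. On each array the RNA of the sorted cells was labelled with Cy5 and a common reference (Universal Mouse Reference, Stratagene) with Cy3, and no dyes were swapped. A level below is therefore a log2 ratio of sorted cells to that reference, and levels were compared between arrays for 1 probe at a time.

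The T cell receptor has no signalling tail of its own, and its antigen-binding chains reach the cell surface only together with the CD3 chains and the zeta chain, which carry the activation motifs. CD4 and CD8 bind the major histocompatibility molecules beside the receptor and bring the kinase Lck to it, Lck phosphorylates the activation motifs, and Zap70 binds the phosphorylated motifs and passes the signal on. Natural killer cells also express some of these genes, among them Cd247, Lck, Zap70 and Cd2, and dendritic cells can express Cd8a or Cd4.

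Cd3g, Cd3d and Cd3e lie next to each other on chromosome 9 in the RefSeq gene table, with no protein-coding gene between them, and Cd3g and Cd3d run in opposite directions from starts that are 1355 bases apart. The promoters of these 3 genes and of Cd8a are shown because the probes of Cd3d, Cd3g and Cd8a separated the 2 sorts and that of Cd3e, their neighbour, did not. Each sequence runs from 250 bases before to 50 bases after the RefSeq start on GRCm38.p6, 5′ to 3′ on the strand of the gene. Capitals mark the core motif of ETS factors, GGAA or TTCC, which is the same motif read on the other strand. The windows are chr9:44981536-44981835 (plus strand) for Cd3d, chr9:44980382-44980681 (minus strand) for Cd3g, chr9:45009562-45009861 (minus strand) for Cd3e and chr6:71373177-71373476 (plus strand) for Cd8a.
Cd3d: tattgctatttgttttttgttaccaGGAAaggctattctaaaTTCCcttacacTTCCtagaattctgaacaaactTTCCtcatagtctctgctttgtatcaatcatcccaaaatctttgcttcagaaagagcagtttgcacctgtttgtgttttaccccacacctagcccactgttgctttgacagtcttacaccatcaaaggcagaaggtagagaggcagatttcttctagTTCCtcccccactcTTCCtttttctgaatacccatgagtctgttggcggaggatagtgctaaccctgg
Cd3g: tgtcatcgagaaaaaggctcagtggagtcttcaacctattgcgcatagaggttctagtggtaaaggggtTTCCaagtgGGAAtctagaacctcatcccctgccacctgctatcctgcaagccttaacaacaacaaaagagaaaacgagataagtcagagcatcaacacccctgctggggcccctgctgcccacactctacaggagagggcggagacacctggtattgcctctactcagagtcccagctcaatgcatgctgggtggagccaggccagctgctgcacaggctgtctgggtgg
Cd3e: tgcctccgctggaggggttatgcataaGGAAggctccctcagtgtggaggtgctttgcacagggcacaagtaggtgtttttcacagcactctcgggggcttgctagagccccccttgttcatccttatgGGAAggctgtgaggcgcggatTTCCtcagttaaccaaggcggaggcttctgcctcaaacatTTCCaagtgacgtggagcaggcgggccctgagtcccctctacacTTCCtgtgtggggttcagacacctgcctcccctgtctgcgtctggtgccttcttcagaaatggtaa
Cd8a: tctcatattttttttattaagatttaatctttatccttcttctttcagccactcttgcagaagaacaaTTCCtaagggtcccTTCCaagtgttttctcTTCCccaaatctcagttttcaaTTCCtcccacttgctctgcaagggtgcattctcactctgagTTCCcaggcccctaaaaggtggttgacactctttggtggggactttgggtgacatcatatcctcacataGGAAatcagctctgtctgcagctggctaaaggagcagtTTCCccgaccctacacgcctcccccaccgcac
The ETS core occurred 6 times in the Cd3d window, 2 times in that of Cd3g, 5 times in that of Cd3e and 7 times in that of Cd8a. Its median over all 32851 promoter windows of the same length was 3, and 96% of the windows held at least 1 copy. The RUNX core TGTGGT, on either strand, had 0 matches in the 4 windows and was present in 16.8% of all windows. The TATA box TATAAA, on either strand, also had 0 matches in the 4 windows and was present in 13.6% of all windows. None of the 3 motifs contains another, and a match is a description of the letters only. RefSeq promoter windows were matched for 7 of the 10 genes, and none was matched for Cd8b1, Cd4 or Cd2.

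Cy5 signal was well above background for between 45.5% and 69.5% of all probes on an array, and 9 to 14 of the 18 probes of the complex passed that mark on each array. Marker-positive array 3 stood apart from arrays 1 and 2, which correlated at 0.923 with each other over the tested probes, and correlations within the marker-positive group went down to 0.582. Correlations were 0.668 to 0.901 within the marker-negative group and 0.483 to 0.729 between the groups. Array 3 also had the lowest share of probes above background (45.5%), and the called differences of Cd3d, Cd3g and Cd8a are also given without it. The arrays lay on 5 slides, of which 2 held both groups, and differences within those 2 slides are given beside the called results.

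Of the 10 genes, Cd3d, Cd3g and Cd8a were called lower in the marker-positive cells, each with 1 probe, and 0 were called higher. A call was an adjusted p under 0.05 in limma's moderated test, two-sided, with Benjamini-Hochberg adjustment over every tested probe. With slide as a fixed block, 0 of 13 probes were called (adjusted p = 0.0992 for Cd3d, 0.23 for Cd3g and 0.179 for Cd8a). In the fit without it, the calls were 3 of 13 tested probes, where 1.99% of all tested probes were lower by the same rule. Counted by gene, with the brightest tested probe for each, 3 of 10 were lower against 1.67% of all tested genes, and 0 of 10 were higher against 1.57%. The difference was negative for 11 of 13 probes, and 6 of 13 were lower on every marker-positive array than on any marker-negative array, against 6.78% of all tested probes. The brightest and the dimmest tested Cd8a probes and the tested Cd247 probe passed the filter through marker-negative arrays only. The filter favours a negative difference for such probes, the called Cd8a probe among them, so these counts are descriptions only. The median difference over the 10 genes was -1.67 on the log2 scale, and that over all tested genes was -0.01. In these sorted bulk samples, fewer cells of a type and less RNA per cell cannot be told apart.

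**Figure D1:**
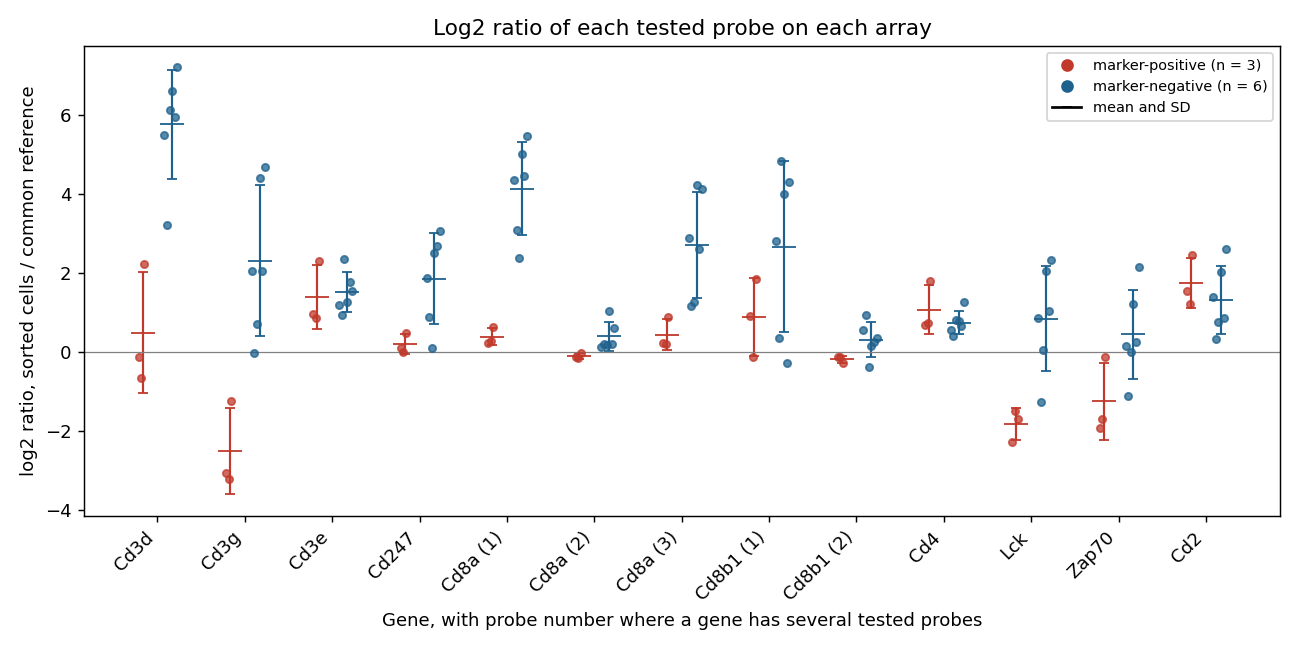
Log2 ratio of sorted cells to the common reference (vertical axis) for the 13 tested probes (horizontal axis), with 1 point per array, 3 marker-positive and 6 marker-negative, and bars at the mean with the SD. Cd3d, Cd3g and the first Cd8a probe show separated groups, and Cd3e, Cd4 and Cd2 show overlapping ones.

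Among the CD3 chains, Cd3d and Cd3g were lower by a similar amount in the marker-positive cells and Cd3e was not called. Cd3d encodes CD3 delta, and its probe lies at chr9:44920433-44920664 on mm7, the build of the array's annotation. Its log2 ratio was -0.12, -0.64 and 2.24 on marker-positive arrays 1, 2 and 3, and ranged from 3.21 to 7.21 with a median of 6.04 on the marker-negative arrays. The groups did not overlap, and marker-positive array 3 was the nearest to the marker-negative range. The means were 0.49 ± 1.53 (SD, n = 3) and 5.76 ± 1.38 (SD, n = 6). The difference was -5.27 (SE 0.88, 95% interval -7.24 to -3.30), a level 38.6-fold lower, with an adjusted p of 0.0139 by limma. The signal was well above background on 2 of 3 marker-positive and 6 of 6 marker-negative arrays. Differences within slides 1 and 2 were -5.61 and -5.54, and without marker-positive array 3 the difference was -6.14 (adjusted p = 0.00765, limma). The call was lost without marker-positive array 1 (-4.96) or array 2 (-4.71). Cd3d ranked as number 4 of the 19850 genes from the most negative difference.

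Cd3g encodes CD3 gamma, which pairs with CD3 epsilon as CD3 delta does, and its probe lies at chr9:44907978-44908562 on mm7. Its log2 ratio was -3.06, -3.20 and -1.23 on the marker-positive arrays and ranged from -0.01 to 4.69 with a median of 2.05 on the marker-negative arrays. The marker-positive arrays all lay below the lowest marker-negative array, and the probe was above background on all 9. The means were -2.50 ± 1.10 (SD, n = 3) and 2.32 ± 1.90 (SD, n = 6), a difference of -4.81 (SE 1.05, 95% interval -7.15 to -2.48) and a level 28.1-fold lower. The adjusted p was 0.0399 by limma, and it was 0.0767 under median centring in place of loess. It lost this call when any 1 of 5 arrays was left out, namely marker-positive arrays 1 and 2 and marker-negative arrays 1, 5 and 6, with differences of -5.45 to -4.34 over the 9 such fits. Within slides 1 and 2 the differences were -5.11 and -5.40, and without marker-positive array 3 it was -5.45 (adjusted p = 0.0317, limma). Cd3g ranked as number 11 from the most negative gene.

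Cd3e encodes CD3 epsilon, the chain found in both CD3 heterodimers, and its tested probe lies at chr9:44933516-44933575 on mm7. Its log2 ratio was 0.98, 0.87 and 2.32 on the marker-positive arrays and ranged from 0.95 to 2.37 with a median of 1.41 on the marker-negative arrays. All the values of both groups were within the same narrow range, and each group had its highest value well above its others (2.32 and 2.37). The means were 1.39 ± 0.81 (SD, n = 3) and 1.52 ± 0.51 (SD, n = 6), a difference of -0.12 (SE 0.43, 95% interval -1.08 to 0.83) with an adjusted p of 0.915 by limma. The sign of this small difference changed under median centring and when some arrays were left out. The second Cd3e probe was above background on none of the 9 arrays.

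The 3 neighbouring CD3 genes were then compared on the same array, by the difference of their log2 ratios. Such a difference depends on the reference, so that only its change between the groups was read. It was tested with an exact permutation test over the 9 arrays (two-sided, 84 arrangements, smallest possible p 0.0238), for 9 pairs of members with Benjamini-Hochberg adjustment over the pairs. The difference between the sorts was more negative for Cd3d than for Cd3e, by -5.15 on the log2 scale, and for Cd3g than for Cd3e, by -4.69, each with an exact p of 0.0238, adjusted to 0.0357. In both pairs the 3 marker-positive arrays lay below all 6 marker-negative arrays. For Cd3d against Cd3g it was -0.46 (exact p = 0.619) with overlapping values. The pairs were chosen with the members' differences known.

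**Figure D2:**
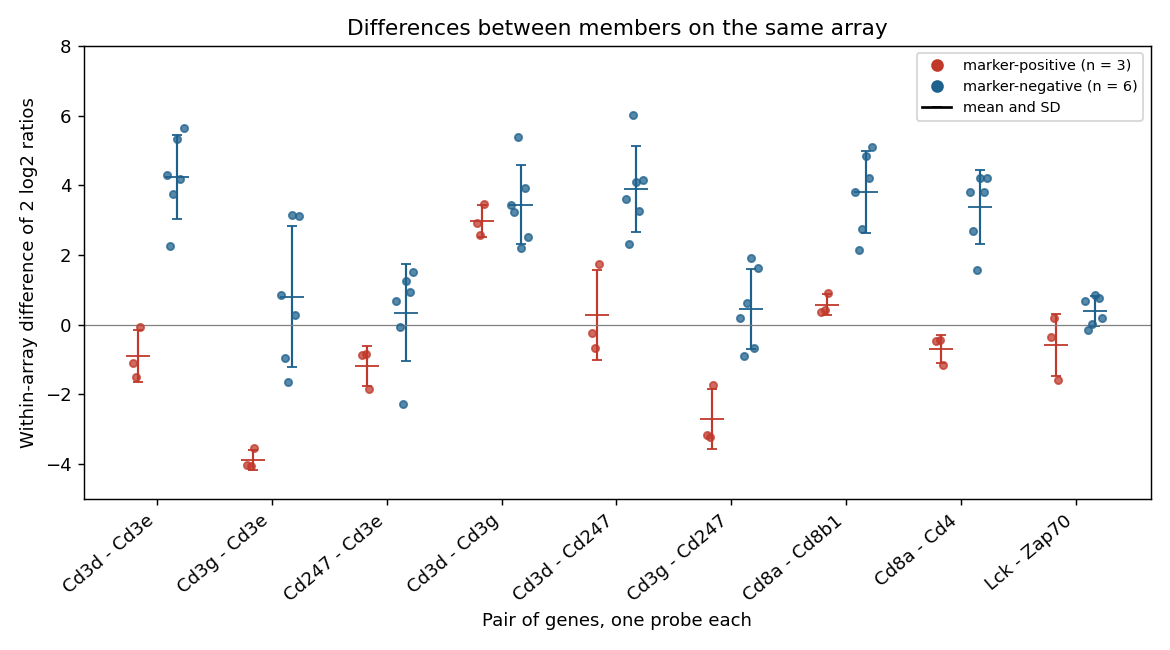
Difference between the log2 ratios of 2 members on the same array (vertical axis) for the 9 pairs (horizontal axis), with 1 point per array and bars at the mean with the SD. The groups are separate for Cd3d and Cd3g against Cd3e and against Cd247, and for Cd8a against Cd8b1 and Cd4, and overlap for the other 3 pairs.

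Cd247 encodes the zeta chain, the longest signalling tail of the complex, and 1 of its 4 probes was tested. Its log2 ratio was 0.12, 0.02 and 0.49 on the marker-positive arrays and ranged from 0.10 to 3.07 with a median of 2.19 on the marker-negative arrays. Marker-negative array 3 at 0.10 lay inside the marker-positive range, and the other 5 were above it. The same 5 were well above background, none of the 3 marker-positive arrays was, and the reference channel was above background on none of the 9, so a ratio near 0 here is 1 dim signal over another. The fitted difference was -1.65 (SE 0.60, 95% interval -2.98 to -0.32), with an adjusted p of 0.166 by limma. From the Cy5 signals after loess and normalization between arrays, the marker-negative mean was at least 3.04-fold above the bound of the marker-positive arrays. That bound was, on each array, the higher of the probe's own signal and the lowest signal that any probe showed well above background. Such a Cy5 signal is open to dye bias. The other Cd247 probes were above background on 0, 1 and 2 of the 9 arrays, the last of them being listed under the name 4930549J05Rik. On the same array, the difference between the sorts was more negative for Cd3d and Cd3g than for Cd247, by -3.62 and -3.16 (exact p = 0.0238, adjusted 0.0357 for each). Because Cd247 was not above background in the marker-positive cells, its own difference may be larger in size and these gaps smaller. Cd247 against Cd3e gave -1.52 with overlapping values (exact p = 0.119, adjusted 0.134). The Cd247 probe passed the filter through marker-negative arrays only, so the p-values of its pairs are descriptions only.

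Cd8a was the called coreceptor gene. It encodes CD8 alpha, which forms a dimer with itself or with CD8 beta, and it had 3 tested probes within chromosome 6 on mm7. The brightest probe, at chr6:71395267-71395326, had log2 ratios of 0.24, 0.29 and 0.64 on the marker-positive arrays and ranged from 2.38 to 5.47 with a median of 4.42 on the marker-negative arrays. The groups were well separated, and the spread was small in the marker-positive group, where none of the 3 arrays was above background, against 6 of 6 marker-negative arrays. The difference was -3.75 (SE 0.64, 95% interval -5.18 to -2.32, adjusted p = 0.0151 by limma), between means of 0.39 ± 0.22 (SD, n = 3) and 4.14 ± 1.18 (SD, n = 6). The ratios put the marker-positive level 13.4-fold lower, and the Cy5 signals after loess and normalization between arrays put it 21.4-fold lower (log2 11.17 against 6.75). The marker-positive signal was not above background and both scales are open to dye bias, so the size of the fold is uncertain. Within slides 1 and 2 the differences were -4.13 and -3.78, and without marker-positive array 3 it was -3.87 (adjusted p = 0.0224, limma). The call was lost without marker-positive array 1 (-3.67) or array 2 (-3.69).

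The other Cd8a probes had negative differences that did not pass the threshold. The probe printed in 10 spots, at chr6:71396848-71396907 on mm7, had log2 ratios of 0.23, 0.21 and 0.90 on the marker-positive arrays and 1.17 to 4.24 (median 2.75) on the marker-negative arrays. Its groups did not overlap, and its difference was -2.27 (SE 0.71, adjusted p = 0.115 by limma). The third probe, at chr6:71391822-71391881 on mm7, was dim, with signal above background on none of the marker-positive and 4 of 6 marker-negative arrays. Its difference was -0.50 (SE 0.21, adjusted p = 0.226 by limma), and the Cy5 signals gave a level at least 1.37-fold higher in the marker-negative cells.

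Cd8b1, which encodes CD8 beta, was measured by 2 probes that lie on different chromosomes in the array's annotation. The probe on chromosome 6, next to Cd8a at chr6:71355005-71355063 on mm7, had log2 ratios of 0.93, -0.12 and 1.85 on the marker-positive arrays and ranged from -0.27 to 4.84 with a median of 3.41 on the marker-negative arrays. The marker-negative arrays were divided, with arrays 1, 3, 4 and 6 between 2.81 and 4.84 and arrays 2 and 5 at 0.36 and -0.27. Array 5 was the third highest for Cd8a (4.47), and array 3, the highest for Cd8b1, was the lowest for Cd8a (2.38). The difference of Cd8b1 was -1.79 (SE 1.15, 95% interval -4.37 to 0.79) with an adjusted p of 0.438 by limma. The other probe, at chr5:114364254-114364313 on mm7 and so away from the Cd8 genes, varied between -0.36 and 0.95 over the 9 arrays, with a difference of -0.51 (SE 0.31, adjusted p = 0.415 by limma). The RefSeq table places Cd8b1 on chromosome 6, and whether the chromosome 5 probe measures Cd8b1 was not tested. As the brighter of the pair it stands for Cd8b1 in the counts by gene, the pair tests and the mean over the complex.

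Whether the difference of Cd8a was larger than that of Cd8b1 depended on the Cd8b1 probe. With the brighter probe on chromosome 5 the gap between them was -3.24 (exact p = 0.0238, adjusted 0.0357). With the probe on chromosome 6, an alternative added after the data were seen, it was -1.96 with an exact p of 0.238, adjusted to 0.268. The Cd8a probe in both gaps passed the filter through marker-negative arrays only. The filter favours a negative gap here, so these p-values are descriptions only.

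Cd4 encodes the coreceptor of helper T cells, and its tested probe was printed in 10 spots. Its log2 ratio was 0.70, 0.74 and 1.80 on the marker-positive arrays and ranged from 0.42 to 1.26 with a median of 0.73 on the marker-negative arrays. The groups overlapped, with marker-positive array 3 the highest of all. The difference was 0.32 (SE 0.32, 95% interval -0.39 to 1.03, adjusted p = 0.636 by limma), and without marker-positive array 3 it was -0.04. The second Cd4 probe was above background on none of the 9 arrays. The difference between the sorts was more negative for Cd8a than for Cd4, by -4.07 (exact p = 0.0238, adjusted 0.0357), and by -2.59 with the 10-spot probe of Cd8a (exact p = 0.0238, adjusted 0.0357), an alternative added after the data were seen. The brightest Cd8a probe was not above background in the marker-positive cells, so its gaps to Cd8b1 and Cd4 may be larger in size. That probe passed the filter through marker-negative arrays only, which favours a negative gap, so its p-value against Cd4 is a description only.

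The 2 kinases were below the marker-negative mean in the marker-positive cells, but neither passed the threshold. Lck had log2 ratios of -2.27, -1.49 and -1.70 on the marker-positive arrays and ranged from -1.25 to 2.34 with a median of 0.96 on the marker-negative arrays. The groups did not overlap, although marker-negative array 2 at -1.25 came close to the marker-positive arrays. The difference was -2.67 (SE 0.71, 95% interval -4.26 to -1.07, adjusted p = 0.077 by limma), with -3.12 and -1.90 within slides 1 and 2. Without marker-negative array 2, Lck was called, with a difference of -3.09 (adjusted p = 0.0249 by limma).

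Zap70 had log2 ratios of -1.92, -1.68 and -0.12 on the marker-positive arrays and ranged from -1.11 to 2.16 with a median of 0.22 on the marker-negative arrays. Its groups overlapped at marker-positive array 3 and marker-negative array 2. The difference was -1.69 (SE 0.68, 95% interval -3.22 to -0.16, adjusted p = 0.211 by limma). The gap between Lck and Zap70 was -0.98, with overlapping values (exact p = 0.0952, adjusted 0.122).

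Cd2 encodes an adhesion receptor that T cells and natural killer cells share. Its log2 ratio was 1.56, 1.22 and 2.45 on the marker-positive arrays and ranged from 0.33 to 2.61 with a median of 1.13 on the marker-negative arrays. The groups overlapped over almost the whole range, and the difference was 0.41 (SE 0.52, 95% interval -0.74 to 1.57, adjusted p = 0.724 by limma).

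**Figure D3:**
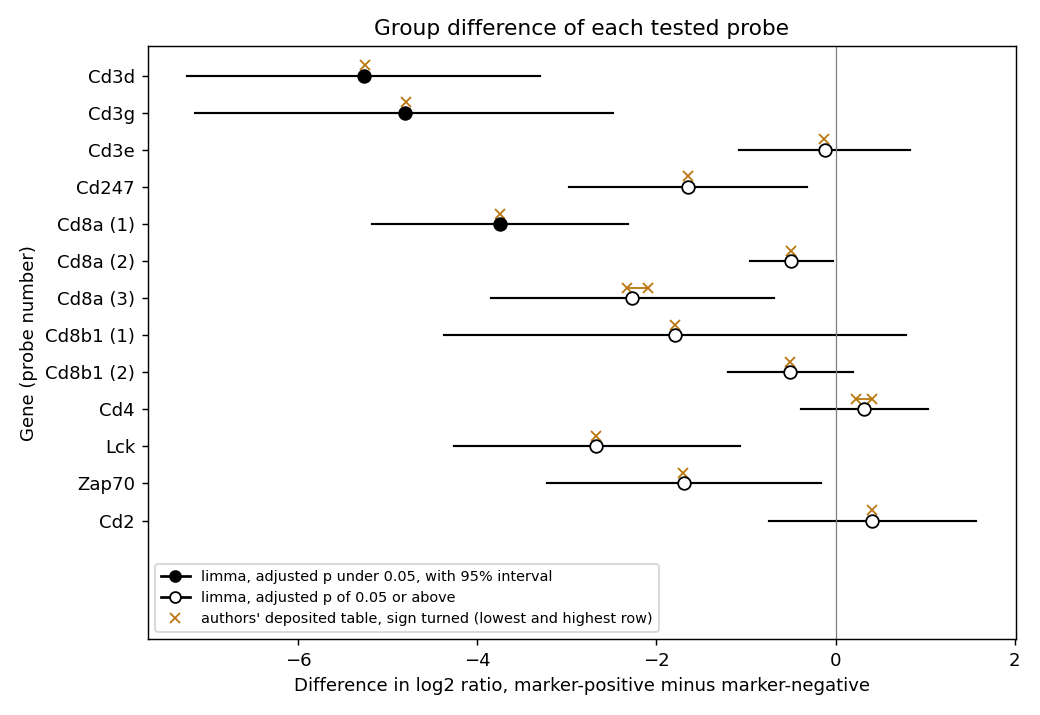
Difference in log2 ratio, marker-positive minus marker-negative (horizontal axis), for the 13 tested probes (vertical axis), with the 95% interval of the limma fit and filled points at an adjusted p under 0.05. Crosses are values of the authors' deposited table with the sign turned and lie on or beside the fitted values. Where a probe was printed in 10 spots, 2 joined crosses give the lowest and highest of its rows.

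The authors' deposited table gives its log2 changes as non-stem minus stem cells, the direction opposite to the one used here, and its values are printed with the sign turned. In the authors' deposited table the log2 change was -5.25 for Cd3d (adjusted p = 0.00314), -4.80 for Cd3g (adjusted p = 0.000364) and -3.75 for the brightest Cd8a probe (adjusted p = 0.00244). The authors' deposited table also has adjusted p-values under 0.05 for Lck (log2 change -2.67, adjusted p = 0.0147) and Zap70 (log2 change -1.70, adjusted p = 0.0143), which were not called in the fit above. Its 10 rows for the repeated Cd8a probe had log2 changes of -2.33 to -2.09, with adjusted p-values of 0.021 to 0.0487 in the authors' deposited table. For Cd247 (log2 change -1.65, adjusted p = 0.0792), Cd3e (log2 change -0.13, adjusted p = 0.915) and Cd2 (log2 change 0.41, adjusted p = 0.553) the authors' deposited table passes no threshold of 0.05.

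Among the 6 marker-negative arrays most, but not all, members were high or low on the same arrays. Array 6 was the highest for 8 of the 10 genes, and array 2 was the lowest for 7 and array 3 for the other 3. The exceptions were highest on those low arrays, Cd3e on array 3 (2.37) and Cd8b1, by its chromosome 5 probe, on array 2 (0.95). Among the marker-positive arrays, array 3 was the highest for 8 of the 10 genes. The mean over the 10 genes was -0.39, -0.40 and 0.66 on the marker-positive arrays and 1.85, 0.75, 1.30, 2.61, 2.0 and 3.07 on marker-negative arrays 1 to 6, with no overlap but a gap of only 0.09 between the nearest arrays. With the chromosome 6 probe of Cd8b1, an alternative added after the data were seen, marker-positive array 3 was at 0.87 and marker-negative array 2 at 0.69, so the groups overlapped. Means of pan-leukocyte genes, such as Ptprc and Coro1a, were also lowest on marker-negative array 2 (-1.55) and highest among the marker-positive arrays on array 3 (2.45). Among the marker-negative arrays these means were highest on array 4 (1.91), above array 6 (1.67). The part of total leukocyte RNA in these differences between arrays was not tested.

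Genes that work with the complex were taken from lists, and each list is given as counts and a median difference. Beside these stand the shares over all tested genes, 1.67% called lower and 1.57% higher, and their median difference of -0.01. By probe, 1.99% of all tested probes were called lower. The variable and constant chains of the receptor itself had 18 of 20 probes tested, 1 of them called lower and 0 higher. It was a probe of Trbv14, a beta chain variable gene listed as Tcrb-V13, with a difference of -3.56 (SE 0.81, adjusted p = 0.046 by limma) and groups that overlapped at 1 array of each. Other tested Trbv14 probes were at -3.17 (adjusted p = 0.0685), -3.13 (0.0666), -1.96 (0.076) and -0.67 (0.237, all by limma). The groups were separate for those at -3.17 and -1.96. The brightest probe of Tcrg, the gamma chain, was at -3.33 (SE 0.81, adjusted p = 0.058) with separate groups. The other tested Tcrg probes overlapped between the groups, at -0.86 (adjusted p = 0.442) and -0.16 (adjusted p = 0.745). Tcrg-C was at -1.15 (adjusted p = 0.522), and the brightest probe of Tcra, the alpha chain, at -1.45 (SE 0.64, adjusted p = 0.25, all by limma). By gene, 0 of 8 tested chains were called in either direction and their median difference was -0.64. Chains of the same locus share sequence, so their probes may share signal.

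Of the signalling genes, 21 of 22 were tested, 1 was called lower and 0 higher, and the median difference was -0.24. The called gene was Txk, a Tec family kinase, with an adjusted p of 0.0409 by limma and a fitted difference of -4.17 (SE 0.91). Its signal was above background on none of the 3 marker-positive arrays, and the marker-negative mean was at least 14.7-fold above their bound. The Txk probe thus passed the filter through marker-negative arrays only, which favours a negative difference, so its call is a description only. Without the filter on dim signal, or under median centring, 0 genes of this list were called lower. Skap1, an adaptor, was at -2.69 (adjusted p = 0.0805) and Fyn, a Src family kinase like Lck, at 1.09 (adjusted p = 0.149, both by limma).

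Of the accessory receptors, 16 of 20 were tested, 1 was called lower and 0 higher, with a median difference of -0.55. The called gene was Cd7, found on T and natural killer cells, at -4.21 (SE 0.85, adjusted p = 0.0298 by limma). The count called lower in this list was 0 with processed signals, 2 under median centring and 4 with array weights. Il2rb, the beta chain of the interleukin-2 receptor, was at -3.60 (adjusted p = 0.0517), Cd96 at -3.45 (adjusted p = 0.115) and the chemokine receptor Ccr7 at 1.89 (adjusted p = 0.232, all by limma). Of the T lineage transcription factors, 13 of 14 were tested, 2 were called lower and 0 higher, with a median difference of -0.63. These were Tbx21, the T-bet factor of type 1 lymphocytes, at -4.87 (SE 0.78, adjusted p = 0.0119) and Satb1, a chromatin organiser, at -2.46 (SE 0.56, adjusted p = 0.0461, both by limma). The count fell to 1 with a normexp offset of 16, processed signals, Cy5 alone, scaling between arrays or no filter on dim signal. It was 0 under median centring and 6 with array weights. Gata3 was at -1.96 (adjusted p = 0.0907) (limma), and Eomes, with signal on none of the marker-positive and 4 of 6 marker-negative arrays, was at least 1.29-fold higher in the marker-negative cells (adjusted p = 0.0705, limma). Among the marker-negative arrays Satb1 and Gata3 were highest on array 2 (4.04 and 2.74) and lowest on array 6 (2.76 and 0.47). This order is the reverse of that of most members of the complex, and the cell source of their signal was not tested.

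Lists of cytotoxic genes and of markers of other cell types were compared in the same way. Whether the cytotoxic genes were expressed by natural killer cells or T cells was not tested. Of 16 natural killer and cytotoxic markers, 15 were tested, all 15 had a negative difference, 6 were called lower and 0 higher, and their median difference was -2.61. Among the called ones were the granzymes Gzmb (-5.12, adjusted p = 7.29e-05), Gzmc (adjusted p = 0.00357, with no marker-positive array above background) and Gzma (-6.65, adjusted p = 0.00567) and the protease Ctsw (-4.56, adjusted p = 0.00576, all by limma). The mean of the list ranged from 0.77 to 1.82 on the marker-positive and from 2.90 to 5.41 on the marker-negative arrays, and like the complex it was lowest on marker-negative array 2 and highest on array 6. Macrophage and dendritic cell markers had 4 of 11 called higher and 0 lower. Their median difference was 1.05, and 2 of 11 differences were negative. Their mean was 2.37 to 3.62 on the marker-positive arrays and -0.15 to 1.80 on the marker-negative arrays. Cd163 and Mrc1, the scavenger and mannose receptors of macrophages, were above background on 3 of 3 marker-positive and on none of the marker-negative arrays. Lyz2 (4.88) and Itgam (1.02) were also called (adjusted p = 0.0215 for each, limma). Lyz2 was above background on 6 and Itgam on 3 of the 6 marker-negative arrays too. The rest of the list was not called. The probes of Cd163 and Mrc1 passed the filter through marker-positive arrays only, and that of Gzmc through marker-negative arrays only. The filter favours such differences, so the counts of these lists are descriptions only.

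Pan-leukocyte genes had 0 of 8 called in either direction and a median difference of 1.11, with means of 0.59 to 2.45 on the marker-positive and -1.55 to 1.91 on the marker-negative arrays. B cell markers had 0 of 8 called and a median difference of 0.17. Mast cell markers had 3 of 6 called higher and a median difference of 3.61. Prostate epithelial markers had 0 of 7 called, with a median difference of -1.88. Of 5 endothelial markers 1 was called higher (median 2.35), and of 5 fibroblast markers 0 were called (median 1.25). The part of each of these cell types in the differences of the complex was not tested.

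**Figure D4:**
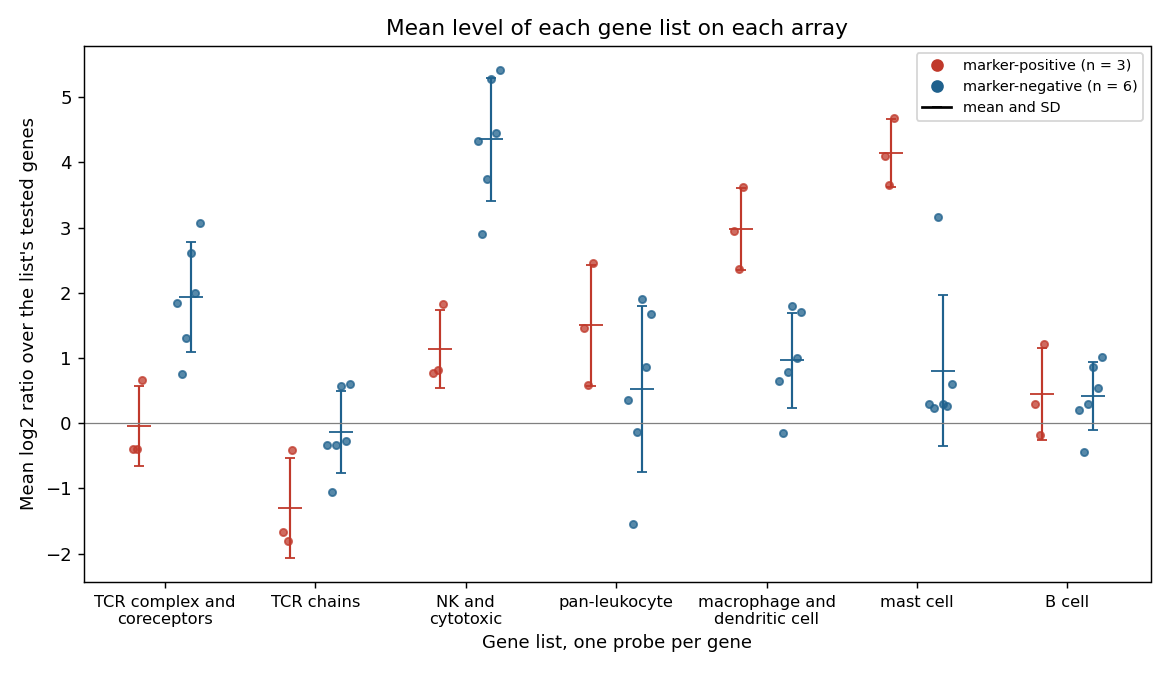
Mean log2 ratio over the tested genes of each list (vertical axis), with 1 point per array and bars at the mean with the SD, for the complex and 6 other lists (horizontal axis). The natural killer and cytotoxic list lies higher on every marker-negative array than on any marker-positive array. So, by 0.09, does the complex with the chromosome 5 probe of Cd8b1, but not with its chromosome 6 probe. The macrophage and mast cell lists lie lower, and the T cell receptor chain, pan-leukocyte and B cell lists overlap.

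The genes with array profiles most like those of Cd3d, Cd8a and Lck were found by the root mean square distance between log2 ratios over the 9 arrays, after each profile was centred on its mean. For Cd3d they were Cd7 (distance 0.69), the chemokine Ccl5 (0.75), the cytokine Ifng (0.84) and LOC665500 (0.88). For Cd8a they were Ifng (0.60), Txk (0.63), the natural killer receptor Klra16 (0.64) and Tcrg (0.67). For Lck they were Skap1 (0.38), Cd72 (0.51), Cst7 (0.56) and Pglyrp2 (0.59). They were chosen for their likeness, so their direction is no separate result.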

How the data were processed

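Sorted prostate cells were measured on 9 two-colour Agilent mouse arrays, with sample RNA in Cy5 and the common reference in Cy3. The authors deposited scanner output as spot intensities that are not normalized, and the submitters' processing notes name Agilent Feature Extraction 10.7. Probe positions are on mm7 per the file headers. Processed intensities, which per the file headers had the background removed and the dyes balanced by that software, served as an alternative. The authors also deposited a table with log2 changes, p-values, limma scores and a signed fold per probe, per the file headers, and no source used here gives its normalization.

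Mean spot intensities were corrected for the median local background with normexp (offset 50) and normalized within arrays by loess, and spots of 1 probe were averaged. The Cy5 signals used for bounds were taken after this loess, with the mean intensity of both channels quantile normalized between arrays, so they also depend on the reference channel. Probes entered the test where 3 or more arrays showed Cy5 signal well above background. Groups were compared in limma 3.58.1 (R 4.3.3; lmFit and eBayes with trend and robust estimation), and p-values were adjusted by Benjamini-Hochberg across the tested probes and called under 0.05. Where a gene had several tested probes, the one of highest mean intensity stood for it in counts by gene. The fit was tested on simulated data. The number of arrays limits the precision. Figures were drawn with matplotlib 3.10.9. The members, gene lists and pairs were chosen with earlier results of these data known. Named were all probes of the members, the 4 genes with the smallest adjusted p of each list for the T cell, natural killer and macrophage lists, and the 4 genes nearest in profile to Cd3d, Cd8a and Lck. A gene that this rule takes in is not reported here. Alternatives covered background correction, normalization, the filter, the variance model, array weights, slide blocks and leaving out each array. Exons and untranslated regions of mm7 were not used here.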

Additional observations from a re-analysis of the deposited data

Results flagged for a closer look

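Of 35 sets of marker-negative values looked at (each tested probe of the complex, the pairs and the list means), 1 held an array far from the others. The mean log2 ratio of the mast cell markers was 3.16 on marker-negative array 3, against 0.24 to 0.60 on the other 5 marker-negative arrays. Chance alone marks about 1 in 20 such sets. Array 3 was also the lowest marker-negative array for Cd247, Cd8a and the chromosome 5 probe of Cd8b1, and the part of mast cell RNA in those values was not tested.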

How the results depend on the processing

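All 3 calls kept their direction in every alternative run. Calls were lost under slide as a fixed block for Cd3d (-5.57, adjusted p = 0.0992), Cd3g (-5.27, adjusted p = 0.23) and Cd8a (-3.93, adjusted p = 0.179), and for Cd3g under median centring (-4.68) and with Cy5 alone (-4.48). Leaving out 1 array gave -6.14 to -4.71 for Cd3d, -5.45 to -4.34 for Cd3g and -4.10 to -3.48 for Cd8a, 0 to 4 probes of the complex called lower (0 without marker-positive array 1 or 2), and 98 to 934 genes higher and 87 to 498 lower over all, against 312 and 331. Over all genes, 141 were higher and 85 lower under median centring, 2202 and 2264 with array weights, and 128 and 20 with the fixed block. Array weights called 7 probes of the complex, adding Cd247 (-1.81), the 10-spot Cd8a probe (-2.43), Lck (-2.65) and Zap70 (-2.01). The fixed block called 0, and the requirement of signal in both channels on all arrays 1, since it keeps fewer probes. The small difference of Cd3e changed sign under median centring (0.01) and without marker-positive array 1 (0.08), marker-positive array 2 (0.13) or marker-negative array 3 (0.05), over a range of -0.59 to 0.13, that of Cd4 without marker-positive array 3 (range -0.04 to 0.51), and the median of the signalling list without marker-positive array 1 (range -0.69 to 0.13). Leaving out 1 array ended the 6 pair calls in 8 of 9 fits (smallest possible exact p 0.0714 or 0.0357) and not without marker-negative array 3 (adjusted p = 0.0459), with ranges of -5.55 to -4.84 for Cd3d and -5.18 to -4.22 for Cd3g against Cd3e, -4.36 to -3.15 and -3.66 to -2.88 against Cd247, and -3.57 to -2.98 for Cd8a against Cd8b1 and -4.43 to -3.83 against Cd4. Cd247 against Cd3e ranged from -2.05 to -1.20 and was called without marker-negative array 3. Cd8a against Cd8b1 was -2.92 under median centring (exact test, adjusted p = 0.0714) and -1.96 with the chromosome 6 probe. Under the other scalings the median difference over all tested probes stayed between -0.04 and 0.03. The cause of the other shifts was not tested. No paired analysis was possible because the labels give the arrays no replicate numbers, and slide was used as the block instead. Probes not above background in a group give bounds only.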
